A study of Homo sapiens with 6 samples.

Results

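The miR-181 family of MDA-MB-231 spheroid and parental cells is described here across its stem-loops and both arms. Its members were taken by name, as every listed mature sequence assigned to a mir-181a, mir-181b, mir-181c or mir-181d stem-loop, and they were 7 of the 437 mature sequences listed over both count tables. All 7 were listed for spheroid cells and 6 for parental cells. The family was picked for description because folds of these data were already known, so its values are given as a description and no test was run on them. The cells are an established estrogen-independent breast adenocarcinoma line. The spheroid group consisted of 3 samples grown in suspension without serum, and the parental group consisted of 3 samples of adherent monolayer cells grown with fetal bovine serum. No treatment or genetic change was named for either group. The groups differ in serum and in attachment at once, so that these cannot be told apart, and 1 cell line was used. The study asked which miRNAs distinguish spheroid cells enriched for cancer stem cell properties from their parental cells.

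The values come from 1 table of read counts per condition, with 1553014 reads for spheroid cells and 539798 reads for parental cells. Values per sample are not given (0 such columns), and the labels tie each table to all 3 samples of its condition. The study's library summary, however, gives only 1 index sequence per condition. Its counts for the most abundant miRNA, 108885 for miR-21 in parental and 277306 for miR-10a in spheroid cells, equal those used here. Each table may therefore hold only 1 library. The same summary, however, gives far more parental reads mapped to stem-loops than the parental total used here. Its spheroid number lies close to the spheroid total. The reason for the parental gap is not known. Which samples each table covers is not known either, and there is no replicate error. Reads were divided by the total of their table and are given as reads per 1000000 (rpm), and each fold is spheroid over parental. Intervals are exact binomial (Clopper-Pearson) 95% intervals unless named otherwise. They cover counting error only, since amplified reads that carry no molecular identifier are not separate molecules. Where a sequence had 0 reads, 3 reads were taken as the floor, equal to 1.93 rpm for spheroid and 5.56 rpm for parental cells.

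MicroRNAs are cut from stem-loop precursors by Drosha and Dicer, and 1 strand of the duplex is loaded into an Argonaute protein, where its seed, bases 2 to 8 from the 5′ end, pairs with target mRNAs. In the miR-181 family the 5p strand is the main product of each stem-loop, and the 3p strand is the less abundant partner. The family is best known for its part in lymphocyte development, where miR-181a tunes T cell receptor signalling, and miR-181a and miR-181b are also known to be raised by TGF-beta in breast cancer cells.

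All 7 sequences matched a mature miRNA of RefSeq (GRCh38.p14), whose letters are printed here. The 5p sequences are shown because their shared seed, in capitals, defines the family, while the bases after it set the members apart.
miR-181a-5p: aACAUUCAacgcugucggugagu
miR-181b-5p: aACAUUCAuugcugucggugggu
miR-181c-5p: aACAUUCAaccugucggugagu
miR-181d-5p: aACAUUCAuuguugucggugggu
Counted from 1 at the 5′ end, miR-181b-5p differs from miR-181a-5p by A9U, C10U and A21G. The sequence of miR-181d-5p differs from miR-181b-5p by C12U alone, and miR-181c-5p equals miR-181a-5p with base 11 left out. The 4 members with this seed were the only sequences of either table that carried it. The miRNA miR-4262, which is grouped with them by its seed, is not analysed here.

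The 3p sequences are shown because they, unlike the 5p sequences of mir-181a, tell the copies of a stem-loop apart. The seed is again in capitals.
miR-181a-1-3p: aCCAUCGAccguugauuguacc
miR-181a-2-3p: aCCACUGAccguugacuguacc
miR-181c-3p: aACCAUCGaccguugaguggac
The sequence of miR-181a-2-3p differs from miR-181a-1-3p, which RefSeq calls miR-181a-3p, by U5C, C6U and U16C, so that these arms have different seeds. From its base 2 on, miR-181c-3p runs for 15 bases with the start of miR-181a-1-3p, and its seed is therefore that of miR-181a-1-3p moved by 1 base. Each of these seeds was found in 1 family member and in 0 other sequences of the tables. RefSeq also holds miR-181b-3p, miR-181b-2-3p and miR-181d-3p, which are not analysed here.

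The stem-loops lie in 3 pairs on 3 chromosomes. In GRCh37, MIR181A1 (chr1:198828173-198828282) and MIR181B1 (chr1:198828002-198828111) lie on the minus strand, 61 bases apart, in an intron of the long noncoding RNA gene MIR181A1HG. On chromosome 9, MIR181A2 (chr9:127454721-127454830) and MIR181B2 (chr9:127455989-127456077) lie on the plus strand, 1158 bases apart, in an intron of MIR181A2HG, and on the strand opposite to an intron of NR6A1. On chromosome 19, MIR181C (chr19:13985513-13985622) and MIR181D (chr19:13985689-13985825) lie on the plus strand, 66 bases apart, in an intron annotated to NANOS3. The count tables name both mir-181a copies for miR-181a-5p and both mir-181b copies for miR-181b-5p. The stem-loops of the mir-181a copies are printed with both mature arms in capitals, to show that the 5p arm is shared and the 3p arm is not.
MIR181A1: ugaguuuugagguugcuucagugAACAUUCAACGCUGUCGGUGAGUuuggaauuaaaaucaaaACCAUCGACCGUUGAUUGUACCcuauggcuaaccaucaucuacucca
MIR181A2: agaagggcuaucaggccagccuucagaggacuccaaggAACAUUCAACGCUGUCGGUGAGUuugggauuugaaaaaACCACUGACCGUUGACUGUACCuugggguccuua
After the 23 bases of miR-181a-5p the copies share 4 further bases, and before it they share 1. A read that starts at base 1 of the mature sequence would need 28 bases to reach the first difference, whereas reads over 27 nucleotides had been removed by the authors.

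In spheroid cells the miR-181a and miR-181b products were higher than in parental cells, and the mir-181c and mir-181d products were few in both. Together the family took 8916 reads in spheroid cells and 663 reads in parental cells. These are 0.574% (interval 0.562% to 0.586%) of the spheroid reads and 0.123% (0.114% to 0.133%) of the parental reads, a fold of 4.67 (4.32 to 5.07). The 4 sequences of mir-181a and mir-181b, from chromosomes 1 and 9, had 8859 reads in the spheroid table against 650 in the parental table, a fold of 4.74 (4.37 to 5.14). The 3 sequences from chromosome 19 had 57 reads against 13 reads, a fold of 1.52 whose interval of 0.824 to 3.03 included 1.

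**Figure D1:**
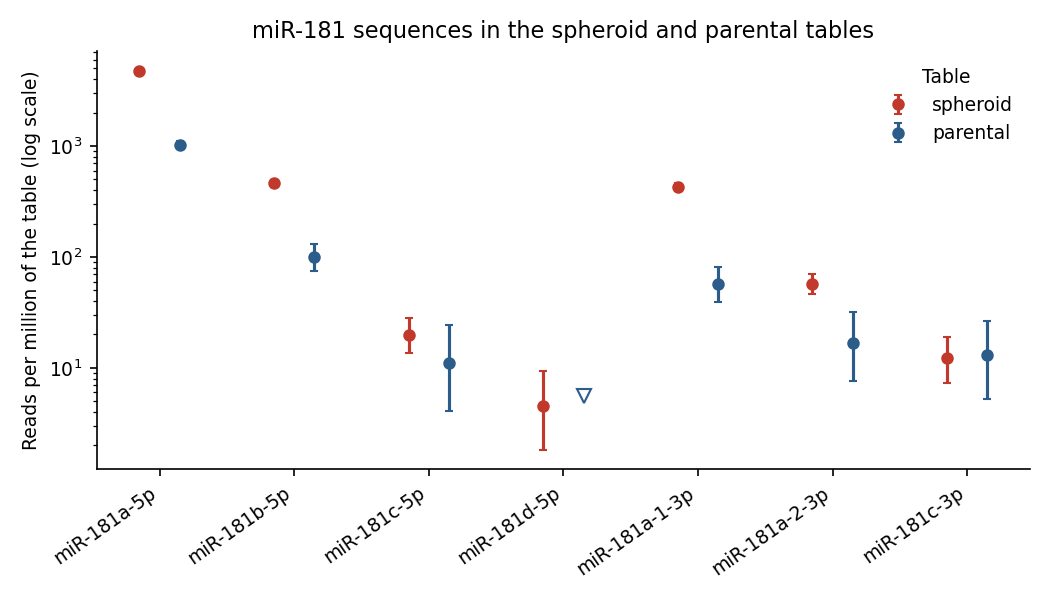
Reads per 1000000 of the table (rpm) (log scale) for each miR-181 sequence in spheroid (red) and parental (blue) cells, with exact binomial 95% intervals from counting error as bars. The open triangle marks the floor of 3 reads (5.56 rpm) for miR-181d-5p, which had 0 parental reads. The intervals of both tables lie apart for miR-181a-5p, miR-181b-5p, miR-181a-1-3p and miR-181a-2-3p and overlap for both arms of mir-181c.

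Of the 5p sequences, which carry the family seed, miR-181a-5p was by far the most abundant. It had 7384 reads in spheroid cells, or 4755 rpm (4647 to 4864), and 556 reads in parental cells, or 1030 rpm (946 to 1119). The fold was 4.62 (4.23 to 5.04), and by read number miR-181a-5p held place 31 in the spheroid table and place 69 in the parental table. Its relative miR-181b-5p had 719 reads in spheroid cells, or 463 rpm (430 to 498), and 54 reads in parental cells, or 100.04 rpm (75.2 to 131). Its fold of 4.63 (3.51 to 6.22) was close to that of miR-181a-5p. For every 100 reads of miR-181a-5p there were 9.74 reads of miR-181b-5p (9.01 to 10.5) in spheroid cells and 9.71 (7.20 to 12.9) in parental cells. This proportion does not depend on how the tables are scaled, and its ratio between the tables was 1.003 with an interval of 0.749 to 1.37.

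The chromosome 19 members were near the limit of what these depths show. The sequence miR-181c-5p had 31 reads in spheroid cells, or 19.96 rpm (13.6 to 28.3), and 6 reads in parental cells, or 11.1 rpm (4.08 to 24.2), a fold of 1.80 (0.738 to 5.27) that became 2.01 with TMM scaling. No difference was detectable for it at this depth. The study, by contrast, lists mir-181c, without naming the arm, as higher in spheroid cells by Kal's Z-test, as it does mir-181a and mir-181b. Its folds differ from those given here. They are larger for mir-181c and, outside the family, for mir-127, and smaller for mir-181b. The contrast for mir-181c is therefore not one of the test alone, and how the study's folds relate to the counts used here is not known. The sequence miR-181d-5p had 7 reads in spheroid cells, or 4.51 rpm (1.81 to 9.29), and 0 reads in parental cells, which allows a level of up to 6.83 rpm. At its spheroid level, 2.43 reads would have fallen in the parental table, so the data give no direction for miR-181d-5p. Relative to miR-181a-5p, miR-181c-5p made 0.420 reads (0.285 to 0.596) per 100 in spheroid cells and 1.08 reads (0.394 to 2.36) per 100 in parental cells.

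Among the 3p sequences, the product of the chromosome 1 copy had the largest fold of the family. The sequence miR-181a-1-3p had 667 reads in spheroid cells, or 429 rpm (398 to 463), and 31 reads in parental cells, or 57.4 rpm (39.0 to 81.5), a fold of 7.48 (5.22 to 11.1). The sequence miR-181a-2-3p, from chromosome 9, had 89 reads in spheroid cells, or 57.3 rpm (46.0 to 70.5), and 9 reads in parental cells, or 16.7 rpm (7.62 to 31.7), a fold of 3.44 (1.73 to 7.76). The intervals of these folds overlap. The sequence miR-181c-3p had 19 reads in spheroid cells, or 12.2 rpm (7.37 to 19.1), and 7 reads in parental cells, or 13.0 rpm (5.21 to 26.7), a fold of 0.943 (0.380 to 2.66) that became 1.06 with TMM and 1.09 with median-of-ratios scaling of the tables. The data thus give no direction for miR-181c-3p.

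In the spheroid table the order of levels was miR-181a-5p, miR-181b-5p, miR-181a-1-3p, miR-181a-2-3p, miR-181c-5p, miR-181c-3p and miR-181d-5p. Neighbours in this order whose intervals overlap were miR-181b-5p with miR-181a-1-3p, miR-181c-5p with miR-181c-3p, and miR-181c-3p with miR-181d-5p. In the parental table miR-181c-3p stood above miR-181c-5p, and the intervals of miR-181a-2-3p, miR-181c-3p and miR-181c-5p overlap one another. The intervals of miR-181b-5p and miR-181a-1-3p in parental cells also overlap. Within the family, miR-181a-5p made up 82.8% (82.0% to 83.6%) of the reads in spheroid cells and 83.9% (80.8% to 86.6%) in parental cells. The share of miR-181a-1-3p was 7.48% (6.94% to 8.05%) in spheroid cells and 4.68% (3.20% to 6.57%) in parental cells. That of miR-181b-5p was 8.06% (7.51% to 8.65%) in spheroid cells and 8.14% (6.18% to 10.5%) in parental cells.

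**Figure D2:**
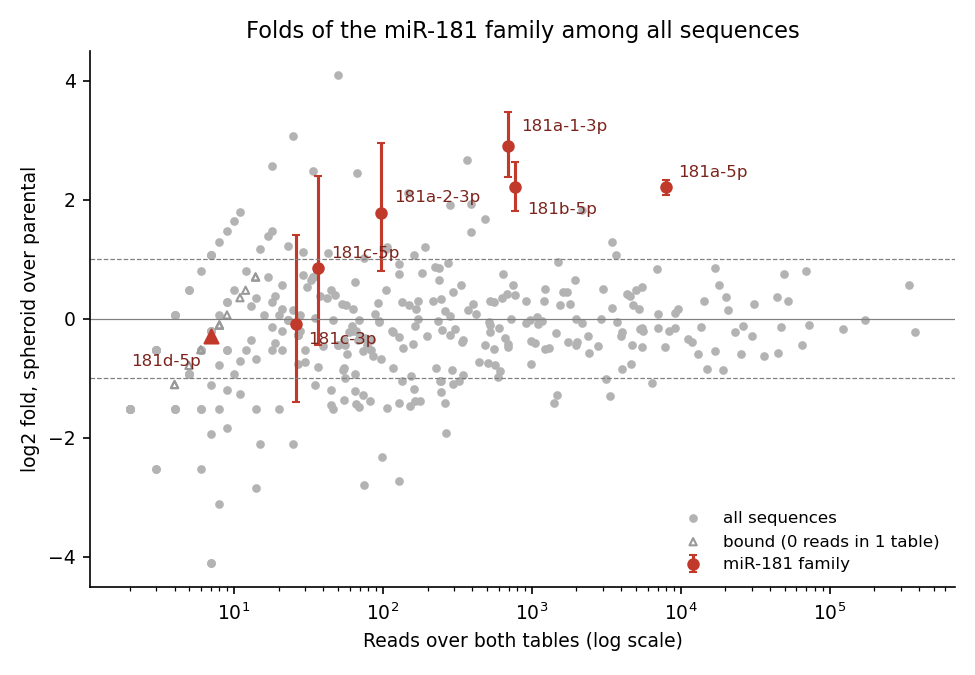
Log2 fold, spheroid over parental, against the number of reads over both tables (log scale), with 1 point for each of the 369 sequences that had a fold or a bound. Red points are the miR-181 family with exact 95% intervals, triangles are bounds against the floor of 3 reads, and dashed lines mark a fold of 2 in each direction. The family members with the most reads lie near the upper edge of the sequences of like read number, whereas both arms of mir-181c and miR-181d-5p lie among the others.

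A fold over 2, the threshold of the study's methods, was passed upward by 4 of the 7 family sequences and downward by 0. Among all 369 sequences with a fold or a bound, 9.76% passed it upward and 17.1% downward. Over the family, the log2 fold had a median of 1.78 (1.99 over the 6 sequences without the bound of miR-181d-5p), beside -0.20 over all 369 sequences. With at least 50 reads over both tables, 4 of 4 family sequences and 8.77% of 228 sequences passed upward. Among the 183 sequences with at least 100 reads over both tables, of which 8.74% passed upward, miR-181a-1-3p held place 1, miR-181b-5p place 3 and miR-181a-5p place 4 by fold. The family was chosen with these folds known, and nothing is read from the counts.

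The sequences whose fold lay nearest to that of the summed family, among those with at least 100 reads, were miR-127-3p, miR-126-5p and miR-125b-2-3p. The imprinted DLK1-DIO3 cluster encodes miR-127-3p, which had 137 reads in spheroid cells and 11 in parental cells, a fold of 4.33 (2.34 to 8.88). The endothelial miR-126-5p had 361 and 33 reads in spheroid and parental cells, a fold of 3.80 (2.66 to 5.61). For miR-125b-2-3p there were 260 reads in spheroid cells and 24 in parental cells, a fold of 3.77 (2.48 to 5.98). The likeness is the distance in log2 fold over only 2 tables, 0.11, 0.30 and 0.31 in that order.

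The 3p arms allowed the mir-181a copies to be compared within each table, where scaling has no part. Of the reads on both mir-181a 3p sequences, the chromosome 1 copy took 88.2% (85.7% to 90.4%) in spheroid cells, 667 of 756 reads. In parental cells it took 77.5% (61.5% to 89.2%), 31 of 40 reads. The difference was 10.7 percentage points, with a Newcombe interval of 0.243 to 25.9, so that its lower end lay close to 0. With spheroid reads thinned to the parental depth it was 10.3 points, and the interval of -0.879 to 25.7 included 0. For every 100 reads of miR-181a-5p, which comes from both copies, there were 10.2 reads (9.49 to 11.0) of the mir-181a 3p sequences in spheroid cells and 7.19 (5.08 to 9.92) in parental cells. The ratio of these proportions was 1.42 (1.02 to 2.03).

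Taken apart by copy, the 3p reads of mir-181a-1 were 9.03 (8.33 to 9.78) per 100 reads of miR-181a-5p in spheroid cells and 5.58 (3.75 to 8.01) in parental cells, a ratio of 1.62 (1.12 to 2.43). Those of mir-181a-2 were 1.21 (0.967 to 1.49) in spheroid cells and 1.62 (0.736 to 3.10) in parental cells, a ratio of 0.745 (0.372 to 1.69). For mir-181c, the 3p arm had 61.3 reads (32.7 to 112) per 100 5p reads in spheroid cells and 117 (33.6 to 420) in parental cells, and the ratio of 0.525 had an interval of 0.126 to 2.16. The arms of mir-181c were therefore far closer in level to each other than those of mir-181a in both tables. A change in the proportion of 3p to 5p reads was common in these tables. Among 41 miRNA names with at least 20 reads on each arm in each table, the median log2 change was 0.22 (quartiles -0.26 and 0.56), that of miR-181a was 0.51, and 23 names changed by more in either direction.

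**Figure D3:**
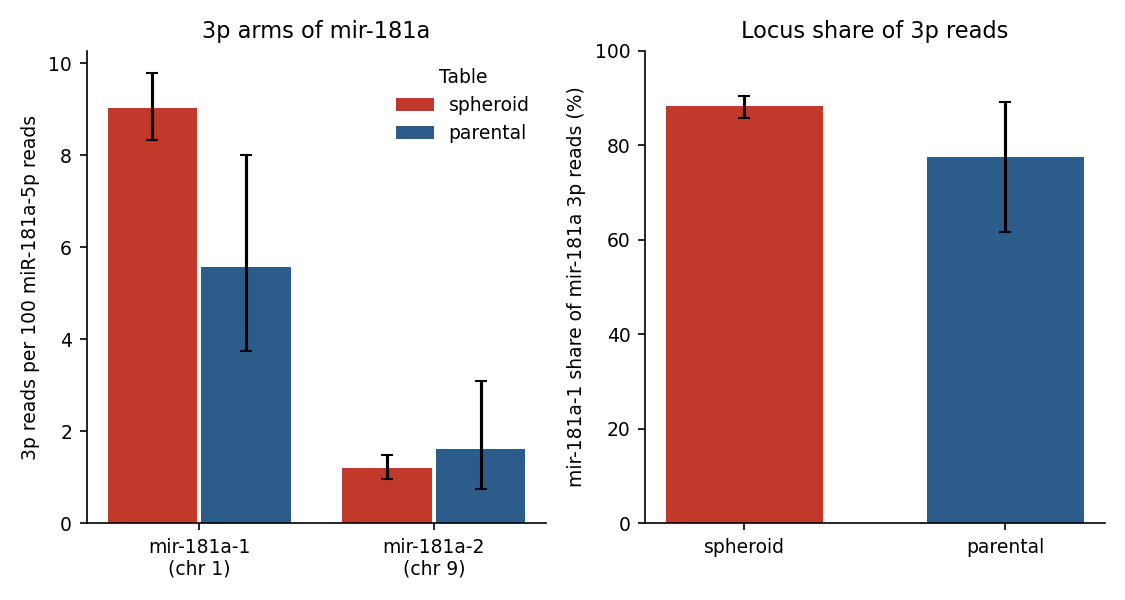
Left, 3p reads of each mir-181a copy per 100 reads of miR-181a-5p in spheroid (red) and parental (blue) cells. Right, share of the mir-181a-1 copy among the reads on both mir-181a 3p sequences, with exact 95% intervals from counting error as bars. The chromosome 1 bar is higher in spheroid cells (9.03 against 5.58), and the parental intervals are wide because they rest on 31 and 9 reads.

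The tables also count the reads equal to the annotated mature sequence, here called exact, while the other reads are variants in length or sequence. The exact share of miR-181a-5p was 47.1% (45.9% to 48.2%) in spheroid cells, 3477 reads, and 57.01% (52.8% to 61.2%) in parental cells, 317 reads. The difference was -9.93 percentage points (Newcombe interval -14.1 to -5.62). For miR-181b-5p the exact share was lower than for miR-181a-5p in both tables, at 22.8% (19.8% to 26.1%) in spheroid cells and 18.5% (9.25% to 31.4%) in parental cells. Its difference of 4.29 points had an interval of -8.37 to 13.0. Most reads of miR-181a-1-3p were exact, 83.1% (79.99% to 85.8%) in spheroid cells and 83.9% (66.3% to 94.5%) in parental cells. The difference of -0.812 points had an interval of -10.3 to 15.9.

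The 3p sequence of the other mir-181a copy had no exact read at all. Of the reads of miR-181a-2-3p, 0 of 89 in spheroid cells and 0 of 9 in parental cells were exact, which allows shares of up to 4.06% and 33.6%. Every read counted for it was thus a variant. Such a sequence was uncommon but not alone, since 10 of the 189 sequences with at least 90 reads over both tables had no exact read. The chromosome 19 members had few exact reads, namely 6 of 31 in spheroid cells and 1 of 6 in parental cells for miR-181c-5p, and 0 of 19 and 1 of 7 for miR-181c-3p. For miR-181d-5p, 3 of the 7 spheroid reads were exact. As miR-181d-5p is 1 base away from miR-181b-5p, which had 719 reads, a misread of that base would move a read between them, and its part in the 7 reads was not tested.

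**Figure D4:**
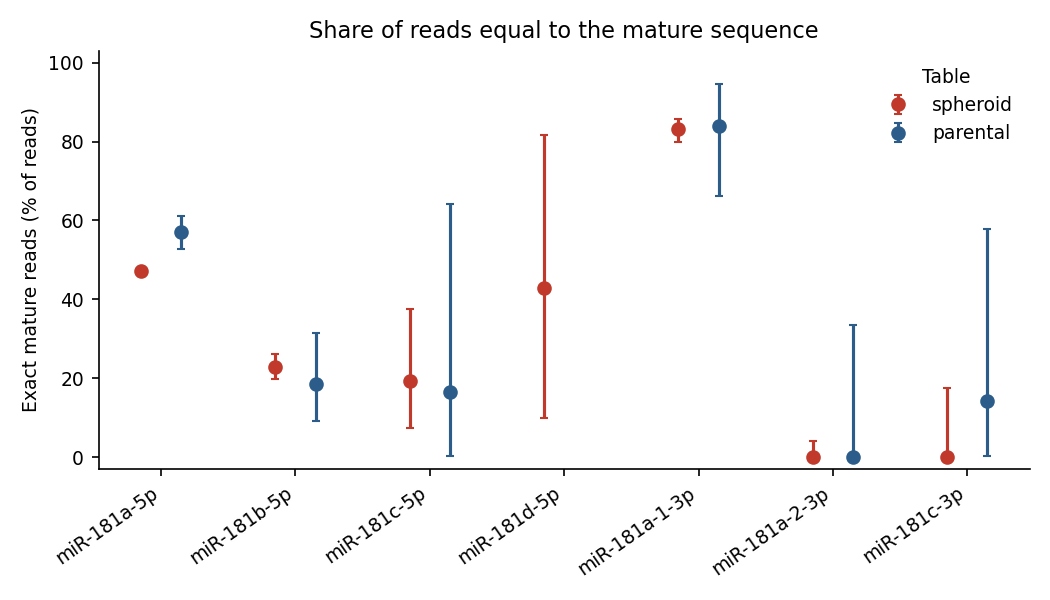
Share of reads equal to the annotated mature sequence for each miR-181 sequence in spheroid (red) and parental (blue) cells, with exact binomial 95% intervals as bars. Only for miR-181a-5p do the intervals of the tables lie apart (47.1% in spheroid and 57.01% in parental cells). The 3p sequence of mir-181a-1 lies at 83.1% and 83.9%, and that of mir-181a-2 at 0% in both tables.

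Differences in exact share between the tables were also seen beyond the family, in both directions. Over the whole tables, 32.7% of the spheroid and 34.9% of the parental reads were exact. Among the 180 sequences with at least 30 reads in each table, the median difference was -0.39 points (quartiles -3.68 and 1.51). Of these, 58 differed by over 5 points in either direction and 13 had a more negative difference than miR-181a-5p. When only exact reads were counted, the fold of miR-181a-5p was 4.07 (3.63 to 4.58). Exact 3p reads of mir-181a were then 15.9 per 100 exact reads of miR-181a-5p in spheroid cells and 8.20 in parental cells, all of them from the chromosome 1 copy.

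The reads counted as unique to 1 stem-loop showed how far the copies could be told apart. For miR-181a-5p, 0 of 7384 reads in spheroid cells and 0 of 556 reads in parental cells were unique, which allows shares of up to 0.0499% and 0.661%. For miR-181b-5p, 101 of 719 reads (14.05%, interval 11.6% to 16.8%) in spheroid cells and 9 of 54 reads (16.7%, 7.92% to 29.3%) in parental cells were unique. The tables do not say to which mir-181b copy these reads belong. All reads of miR-181c-5p, miR-181d-5p and the 3p sequences were unique. Among the 34 sequences that name several stem-loops and had reads in both tables, 33 had an exact read but 0 had a unique exact read, and 11 had no unique read of any kind. How the higher level of miR-181a-5p divides between chromosomes 1 and 9 is therefore not given by its own reads.

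Abundant miRNAs of the cell line were present in both tables, and how far they are particular to it was not tested. The summed miR-21, miR-221, miR-222, miR-100 and miR-10b reads, which are abundant in MDA-MB-231 cells, took 27.6% of the spheroid and 30.7% of the parental reads, with 0 of 10 sequences past 2-fold upward and 2 downward. Most of these reads were miR-21-5p, with 173118 rpm in spheroid and 201714 rpm in parental cells. The miR-200 family and miR-205 of luminal epithelium had 114 rpm in spheroid and 72.2 rpm in parental cells (6 sequences, of which 2 passed upward and 1 downward among 5 with a fold). The upward ones were miR-141-3p, with 8 reads in spheroid cells and 1 in parental cells, and miR-429, with 6 reads and 1 read. The downward one was miR-200a-3p, with 4 reads in spheroid and 5 in parental cells. Nearly all reads of this group were miR-200b-3p, with 152 in spheroid and 31 in parental cells, a fold of 1.70 (1.15 to 2.60). The lymphoid and myeloid list had 1728 rpm in spheroid and 1532 rpm in parental cells, nearly all from miR-155. In it 0 of 3 sequences with a fold passed upward and 1 downward, beside 9.76% and 17.1% of all sequences. The downward member was miR-142-3p with 2 reads in each table and a fold of 0.348 (0.0252 to 4.80). In the same list miR-142-5p had 41 reads in spheroid and 12 in parental cells, and miR-223 was at 0. The neural list had 2276 rpm in spheroid and 3612 rpm in parental cells, with 0 of 6 sequences upward and 1 downward, which had 1 read in each table. Most of it was miR-9-5p, abundant in both tables with 2497 reads (1608 rpm) in spheroid and 1561 reads (2892 rpm) in parental cells, whereas miR-124 was at 0.

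The endothelial miR-126 and, from the fibroblast list, miR-143-3p and the miR-199a sequences moved in the same direction as miR-181a and miR-181b. Both sequences of the endothelial miR-126 passed 2-fold upward, with 264 rpm in spheroid and 63.0 rpm in parental cells. For miR-126-3p this rested on 49 reads in spheroid cells and 1 read in parental cells. Of 8 fibroblast sequences, 4 had a fold and 3 passed upward, beside 9.76% of all sequences, with 361 rpm in spheroid and 122 rpm in parental cells, most of it miR-143-3p, and the defining miR-145-5p had 1 and 0 reads. Of the 3, miR-199a-5p had 20 reads in spheroid and 3 in parental cells, and the interval of its fold (0.687 to 12.2) included 1. The other fibroblast sequence with a fold, miR-145-3p, had 3 reads in spheroid and 1 in parental cells, a fold of 1.04. The arms of miR-214 had 2 reads and 1 read in spheroid cells and 0 in parental cells. The part of RNA from other cell types in the miR-181 values was not tested. Of the red cell list, 0 of 2 sequences passed upward and 1 downward, beside 9.76% and 17.1% of all sequences. The downward one had 1 read in each table. The list had 22427 rpm in spheroid and 17508 rpm in parental cells, nearly all from miR-486, and miR-451a was at 0. Of the muscle list, 0 of 2 passed upward and 1 downward, beside the same shares of all sequences. It had 10.3 rpm in spheroid and 7.41 rpm in parental cells, and miR-1 and miR-206 were at 0. In it miR-133a-3p had 14 reads in spheroid and 0 in parental cells, at least 1.62-fold higher against the floor of 3 reads, and the downward miR-499a-5p had 2 reads in spheroid and 4 in parental cells.

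Of 16 sequences from miRNAs that TGF-beta is known to raise in various cells, 12 had a fold, 3 passed 2-fold upward and 0 downward. Over all sequences, 9.76% passed upward and 17.1% downward. The 3 were also the upward sequences of the fibroblast list, so both counts rest on the same reads. They were miR-143-3p with a fold of 3.19 (2.37 to 4.397), miR-199a-3p, equal to miR-199b-3p, with 2.26 (1.28 to 4.30), and miR-199a-5p with 2.32 (0.687 to 12.2) from 20 and 3 reads. The most abundant of the list stayed within 2-fold: miR-21-5p had a fold of 0.858 (0.852 to 0.864), miR-182-5p 1.18 (1.15 to 1.21) and miR-27a-3p 0.552 (0.536 to 0.568). The median log2 fold of the list was -0.07, beside -0.20 over all sequences.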

How the data were processed

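Small RNA of MDA-MB-231 spheroid cells (3 samples) and parental monolayer cells (3 samples) was sequenced as TruSeq libraries. Reads were trimmed by the authors, kept at 17 to 27 nucleotides and counted per mature sequence in CLC Genomics Workbench 7.0. The authors name miRBase 19 and Ensembl noncoding genes (GRCh37, release 57) as the annotation, and these releases were not checked against the sequences listed. The deposited values are whole read counts without normalization, 1 table per condition, and the number of mismatches allowed is not given in the sources used here.

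Tables were joined by mature sequence and scaled to reads per 1000000 of the table total. The depth was 1553014 reads for spheroid and 539798 for parental cells. Folds, intervals and plots were made with Python 3.11.15, numpy 2.4.6, pandas 2.3.3, scipy 1.17.1 and matplotlib 3.10.9. Ratios of within-table proportions have exact conditional intervals. A fold needed reads in both tables, or over 3 reads against a floor of 3. The study used Kal's Z-test on the sequencing, and it also measured miR-181a-5p by qRT-PCR, which is not analysed here. Kal's Z-test was not applied to the family, because the members, lists and alternatives were chosen with earlier results of these data known. Named were all family rows, sequences sharing their 5p seed or miR-4262, the 3 nearest folds, and at most 3 per list. Other sequences are named from outside this rule, after their values were seen. Alternatives were TMM factors (edgeR 4.0.16), median-of-ratios factors (DESeq2 1.42.0, R 4.3.3), totals without the 5 most abundant sequences of each table, exact reads, unique reads, read minimums of 10 and 50, and spheroid reads thinned to the parental depth. Stem-loops were placed with GENCODE release 44 mapped to GRCh37. The fold intervals were checked on counts simulated with counting error alone, which the intervals themselves assume. That check says nothing about amplification or replicate error.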

Additional observations from a re-analysis of the deposited data

How the results depend on the processing

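The family count past 2-fold upward stayed at 4 with totals without the 5 most abundant sequences, read minimums of 10 and 50, and thinned spheroid reads. With exact reads it was 4 too, but with miR-181c-5p (6 spheroid reads and 1 parental read) in place of miR-181a-2-3p, which has none. It was 5 with TMM and median-of-ratios factors, where miR-181c-5p passed as well (folds of 2.01 and 2.07), and 3 with unique reads, of which miR-181a-5p has none. The summed fold of the family was 5.23 with TMM factors, 5.38 with median-of-ratios factors and 5.12 with unique reads, against 4.67. The TMM and median-of-ratios factors raised every log2 fold by 0.16 and 0.20, and the share of sequences past 2-fold upward was then 11.7% and 12.7%. The fold of miR-181a-5p was 5.17 with TMM factors, 5.31 with median-of-ratios factors and 4.07 with exact reads. With exact reads the difference in the mir-181a-1 share of 3p reads was 0 points, since miR-181a-2-3p has no exact read. With thinned spheroid reads it was 10.3 points, with an interval that included 0 (-0.879 to 25.7). With unique reads 1 TGF-beta-responsive sequence passed upward, against 3. The other values, 19 of 24 for the main results and 30 of 33 for single sequences, stayed within the interval or within 1.5 times the count, and 0 called values reversed. The fold of miR-181c-3p, which was not called, was 1.06 with TMM and 1.09 with median-of-ratios factors. An exact share over unique reads could not be given for miR-181a-5p. No replicate could be left out, and no paired analysis was possible because the tables hold no column per sample. The depth of the parental table sets the limits: 31 and 9 reads on the mir-181a 3p sequences, 6 and 7 on mir-181c and 0 on mir-181d.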
